A study of Mus musculus with 24 samples.

Results

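The genes described are 8 partners of steroid hormone receptors: the coactivators Ncoa1, Ncoa2 and Ncoa3, the corepressors Ncor1 and Nrip1, and the cochaperones Fkbp4, Fkbp5 and Ptges3. They were chosen by symbol, with earlier results of these data known, and are 8 of the 22943 genes in a batch-corrected table of RPKM (reads per kilobase of gene length, adjusted for library size). RNA came from whole uteri of 21-day-old female C57bl/6 mice, in which CTCF, a protein that organises chromatin loops, was removed or kept and progesterone was given or not. All 4 groups carried the floxed Ctcf allele. In the knockouts (PgreCre+;Ctcf-f/f, cKO) Cre was expressed from the progesterone receptor gene Pgr, so cells without Pgr keep the gene, and the controls (Ctcf-f/f) were littermates without Cre. The groups were knockout uteri 6 hours after a subcutaneous injection of 0.5 mg progesterone in 0.05 ml sesame oil (4 libraries), floxed uteri after the same injection (4 libraries), knockout uteri after oil vehicle (8 libraries) and floxed uteri after oil vehicle (8 libraries).

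Steroid receptors are held ready for hormone by a complex of the chaperone Hsp90 with cochaperones such as p23 (encoded by Ptges3) and the immunophilins FKBP52 (Fkbp4) and FKBP51 (Fkbp5). Hormone-bound receptors then sit on DNA, where p160 coactivators (Ncoa1, Ncoa2 and Ncoa3) recruit histone acetyltransferases. The corepressors NCoR1 (Ncor1) and RIP140 (Nrip1) recruit histone deacetylases. In mice, loss of Fkbp4 makes the uterus respond poorly to progesterone, loss of Ncoa2 in Pgr-expressing cells blocks implantation and decidualisation, and Fkbp5 is a gene that progesterone and glucocorticoid receptors switch on.

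The promoters of the immunophilin pair are shown because Fkbp5 was the member that changed with progesterone and Fkbp4 is its close relative that did not pass the test. Each run is the 250 bases before the transcript start in RefSeq, build GRCm38.p6, on the minus strand, at chr17:28486150-28486399 for Fkbp5 and chr6:128438657-128438906 for Fkbp4. Capitals mark a CCAAT box (CCAAT or ATTGG) and, in Fkbp4, a heat shock element (GAANNTTC or TTCNNGAA).
Fkbp5: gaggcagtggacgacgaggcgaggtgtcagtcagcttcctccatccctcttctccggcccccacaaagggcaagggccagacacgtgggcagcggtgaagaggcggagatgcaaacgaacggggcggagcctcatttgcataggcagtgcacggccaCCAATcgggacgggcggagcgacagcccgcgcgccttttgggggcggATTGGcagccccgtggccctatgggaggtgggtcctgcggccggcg
Fkbp4: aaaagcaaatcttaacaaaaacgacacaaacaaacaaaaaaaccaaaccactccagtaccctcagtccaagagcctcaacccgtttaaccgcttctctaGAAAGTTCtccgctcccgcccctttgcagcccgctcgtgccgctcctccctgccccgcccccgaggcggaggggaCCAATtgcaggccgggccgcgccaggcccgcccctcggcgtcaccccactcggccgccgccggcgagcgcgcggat
The Fkbp5 window held CCAAT boxes at -93 and -46, counted from the start, and the Fkbp4 window held one at -76 and the heat shock element GAAAGTTC at -151. Among 32851 promoter windows of the same length, 33.8% held a CCAAT box on either strand and 12.8% a heat shock element. Neither window held the core of the progesterone or glucocorticoid response element (TGTTCT or AGAACA), which stood in 16.1% of all windows, or its palindrome (GNACA and TGTNC with 3 bases between), which stood in 0.387%. RefSeq windows were given for 6 of the 8 members, and a match or its lack describes these letters only. The Fkbp5 start lies inside the longer gene span of GENCODE M21, chromosome 17 from 28399094 to 28517527 on the minus strand.

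Libraries were sequenced in 2 batches. All progesterone libraries and 4 vehicle libraries of each genotype shared a batch, called mixed here, and the other 8 vehicle libraries formed the vehicle-only batch. Depth, read from the step that 1 read makes in low values, lay between 29900000 and 100600000 reads per library. No label ties each library to its own animal, and p-values therefore cover the spread between libraries, which may be technical. Ctcf itself was 9.04 to 10.9 RPKM in knockout progesterone libraries and 25.1 to 27.5 RPKM in floxed progesterone libraries. It was 10.1 to 13.1 RPKM in knockout vehicle libraries and 23.0 to 30.6 RPKM in floxed vehicle libraries. Knockout and floxed values did not overlap. Uterine markers of epithelium, stroma, smooth muscle and endothelium were present in all groups. Of 5 smooth muscle markers, 0 passed the test used below in any comparison. Some markers of the other cell types moved with some comparisons. Of 5 epithelial markers, 4 were lower in knockouts after vehicle, with sums of 188 to 297 RPKM in knockout libraries and 273 to 394 RPKM in floxed libraries, and 1 was higher after progesterone. Of 5 endothelial markers, 2 were higher in knockouts after vehicle and 1 after progesterone. Of 5 stromal markers, 1 was lower in knockouts under each treatment, and 3 fell with progesterone in knockout uteri and 1 in floxed uteri. The summed level of 7 leukocyte markers was 91.7 to 150 RPKM in knockout vehicle libraries and 47.2 to 70.4 RPKM in floxed vehicle libraries, and all 5 that could be tested were higher in knockouts under each treatment. In whole tissue, fewer cells of a type and less RNA per cell cannot be told apart, and the part of these cell types in the members' levels was not tested.

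Fold changes are on the log2(RPKM + 0.5) scale, with SE, from 1 limma fit over 14284 genes, called at a Benjamini-Hochberg adjusted p under 0.05 over all of them. All 8 members were expressed above the filter and entered the fit. With progesterone, 1 of 8 members was called in floxed uteri, where 23.0% of all genes were called (7.84% higher and 15.1% lower). The same count, 1 of 8, was called in knockout uteri, where 8.67% of all genes were called (4.00% higher and 4.66% lower). It was Fkbp5 in both genotypes, and it was higher. Between genotypes, 0 of 8 members were called after progesterone, where 19.4% of all genes were called (12.3% higher and 7.06% lower in knockouts), and 0 of 8 after vehicle, where 24.6% were called (13.1% higher and 11.5% lower). For the difference between the genotypes' responses to progesterone, 0 of 8 were called, against 2.49% of all genes (1.46% with a higher and 1.03% with a lower value in knockouts).

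**Figure D1:**
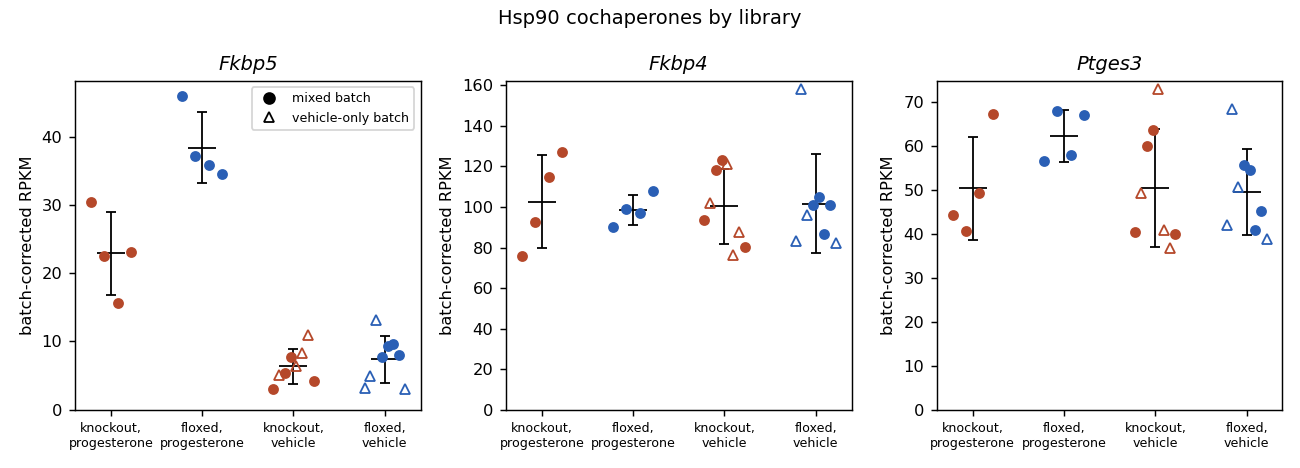
RPKM of the cochaperones Fkbp4, Fkbp5 and Ptges3 in each library, by group. Filled circles are mixed-batch libraries, open triangles vehicle-only-batch libraries, and bars the mean and SD. Fkbp5 lies between 15.6 and 46.0 RPKM in progesterone libraries and between 3.02 and 13.1 RPKM in vehicle libraries, while Fkbp4 and Ptges3 overlap between all groups.

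Fkbp5 rose with progesterone in both genotypes. FKBP51 competes with FKBP52 for the receptor complex and lowers the activity of the progesterone and glucocorticoid receptors. In knockout libraries after progesterone it measured 30.4, 22.5, 15.6 and 23.1 RPKM. In floxed libraries after progesterone it measured 46.0, 37.1, 35.9 and 34.5 RPKM. The lowest, median and highest vehicle values were 3.02, 5.86 and 11 RPKM in knockout libraries and 3.11, 7.87 and 13.1 RPKM in floxed libraries. Every progesterone library was above every vehicle library, and every knockout library after progesterone was below every floxed library after progesterone. In floxed uteri the response was a log2 fold change of 2.39 ± 0.35 (95% interval 1.67 to 3.12, adjusted p = 3.99e-05), which is 5.26-fold on this scale. In knockout uteri it was 1.78 ± 0.35 (1.05 to 2.51, adjusted p = 0.00244), or 3.43-fold.

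Whether Fkbp5 was called between genotypes depended on the scale and on the libraries fitted. After progesterone it averaged 22.9 ± 6.06 RPKM in knockout uteri and 38.4 ± 5.21 RPKM in floxed uteri (SD, n = 4 each). The log2 fold change was -0.76 ± 0.37 (-1.54 to 0.02, adjusted p = 0.166), and the difference of the responses was -0.61 ± 0.46 (-1.57 to 0.34, adjusted p = 0.608). These log2 values were not called. On untransformed RPKM, knockout minus floxed after progesterone was -15.48 ± 2.74 RPKM (adjusted p = 3.32e-04). On that scale the responses were 16.52 ± 2.56 RPKM in knockout uteri and 30.99 ± 2.56 RPKM in floxed uteri, and their difference, -14.46 ± 3.36 RPKM, was called (adjusted p = 0.0159). An equal fold from unequal baselines gives unequal RPKM differences, so the scales ask separate questions.

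The vehicle values of Fkbp5 ordered the genotypes one way in the mixed batch and the other way in the vehicle-only batch. In the mixed batch its vehicle mean was 5.09 RPKM in knockout libraries and 8.69 RPKM in floxed libraries, and the ranges did not overlap. In the vehicle-only batch the vehicle mean was 7.68 RPKM in knockout libraries and 6.1 RPKM in floxed libraries, with 13.1 RPKM in floxed library 1a and at most 5.0 RPKM in the other 3 floxed libraries. The mixed batch alone gave a genotype log2 fold change of -0.78 ± 0.22 after vehicle (adjusted p = 0.0218) and -0.76 ± 0.22 after progesterone (adjusted p = 0.0195). All progesterone libraries are in the mixed batch, so the value after progesterone was -0.76 in both fits. Only its SE differed, at 0.37 with all libraries and 0.22 in the mixed batch alone. The vehicle-only batch alone gave 0.49 ± 0.41 after vehicle (adjusted p = 0.609), and both batches together gave -0.15 ± 0.26 (adjusted p = 0.747). Within the mixed batch the responses to progesterone were 2.10 ± 0.22 in knockout uteri and 2.08 ± 0.22 in floxed uteri, and their difference was 0.02 ± 0.31 (adjusted p = 0.985).

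Fkbp4 (chromosome 6, 128429735 to 128438677, minus strand, GRCm38), the immunophilin needed for full progesterone receptor activity in the mouse uterus, did not pass the test in any comparison. It measured 75.7, 92.4, 115 and 127 RPKM in knockout progesterone libraries and 90.3, 98.8, 97.1 and 108 RPKM in floxed progesterone libraries. Its lowest, median and highest vehicle values were 76.4, 98.1 and 123 RPKM in knockout libraries and 82.3, 98.4 and 158 RPKM in floxed libraries. The 4 groups overlapped. The log2 fold change between genotypes was 0.03 ± 0.19 after progesterone (95% interval -0.36 to 0.42, adjusted p = 0.932) and -0.01 ± 0.13 after vehicle (-0.29 to 0.27, adjusted p = 0.969). The progesterone response was 0.01 ± 0.18 in knockout uteri (-0.35 to 0.38, adjusted p = 0.978) and -0.03 ± 0.18 in floxed uteri (-0.40 to 0.34, adjusted p = 0.935).

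The RPKM ratio of Fkbp5 to Fkbp4, a per-length comparison of the competing immunophilins, had a median of 0.213 in knockout progesterone libraries (0.135 to 0.402) and 0.373 in floxed progesterone libraries (0.318 to 0.51). After vehicle its median was 0.0528 in knockout libraries (0.0323 to 0.125) and 0.0782 in floxed libraries (0.0316 to 0.136). Fkbp4 RNA exceeded Fkbp5 RNA in every library, and the ratio is a description with no test.

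Ptges3 (chromosome 10, 128058954 to 128077272, plus strand) encodes p23, which stabilises the hormone-binding state of the receptor on Hsp90. It measured 44.3, 40.7, 49.4 and 67.2 RPKM in knockout progesterone libraries and 56.5, 67.9, 57.9 and 67.0 RPKM in floxed progesterone libraries. After vehicle the lowest, median and highest values were 36.7, 45.1 and 73.0 RPKM in knockout libraries and 38.9, 48.0 and 68.4 RPKM in floxed libraries. Of the knockout progesterone libraries, libraries 4, 5 and 6 were below all floxed progesterone libraries, and library 8 was inside the floxed range. The genotype log2 fold change after progesterone was -0.33 ± 0.21 (-0.75 to 0.10, adjusted p = 0.294), and after vehicle it was 0.01 ± 0.15 (-0.29 to 0.31, adjusted p = 0.978). Both were refitted without knockout progesterone library 8 and knockout vehicle library 13, which are described below. The values were -0.47 ± 0.19 after progesterone (adjusted p = 0.0815) and -0.08 ± 0.13 after vehicle (adjusted p = 0.693). With the length index given below as a covariate, the value after progesterone was -0.46 ± 0.19 (adjusted p = 0.0765). None of these was called. The progesterone response was 0.00 ± 0.19 in knockout uteri (adjusted p = 0.998) and 0.34 ± 0.19 in floxed uteri (-0.06 to 0.74, adjusted p = 0.222), with a difference of -0.34 ± 0.25 (-0.86 to 0.19, adjusted p = 0.612).

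**Figure D2:**
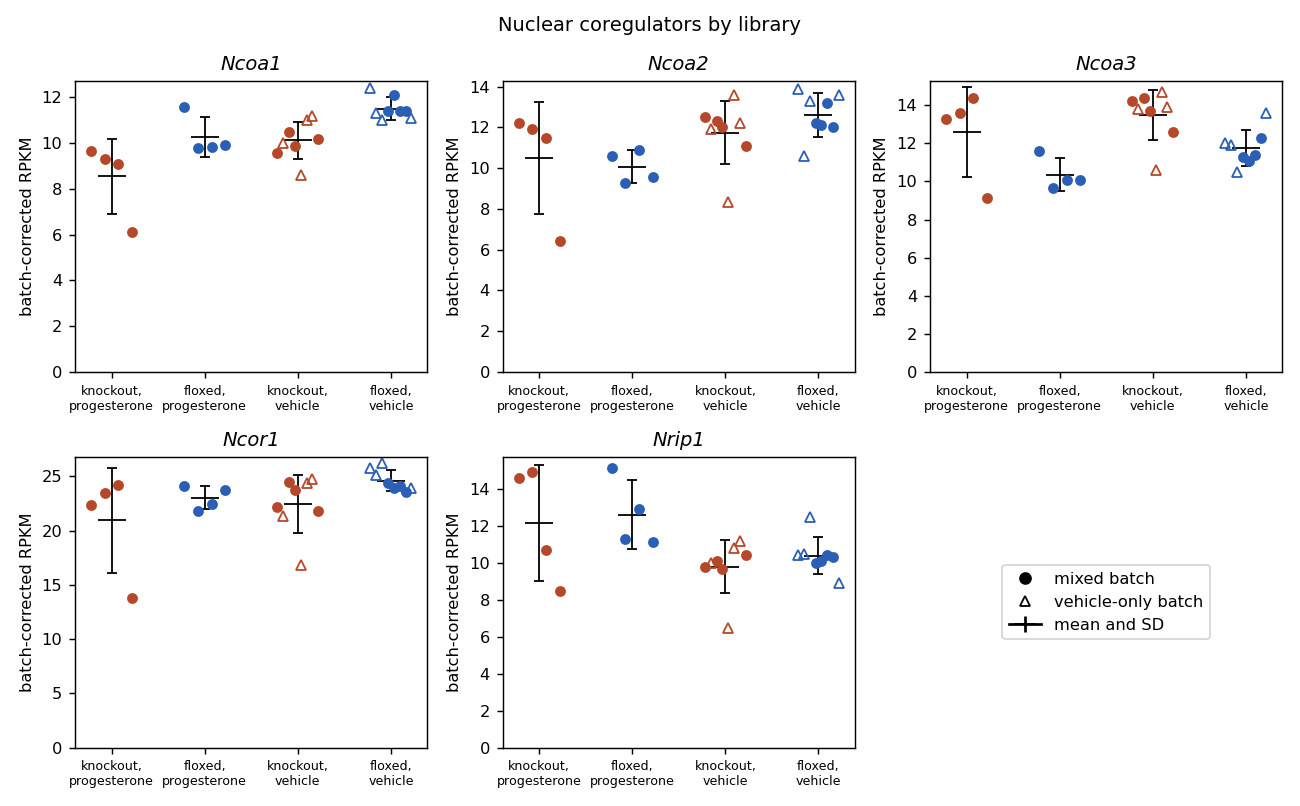
RPKM of the coactivators Ncoa1, Ncoa2 and Ncoa3 and the corepressors Ncor1 and Nrip1 in each library, by group. Filled circles are mixed-batch libraries, open triangles vehicle-only-batch libraries, and bars the mean and SD. Knockout progesterone library 8 and knockout vehicle library 13 are the lowest of their groups for all 5 genes, at 6.11 and 8.59 RPKM for Ncoa1.

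Knockout progesterone library 8 and knockout vehicle library 13 stood apart in all 5 coregulators. Their summed RPKM was 43.9 in the first of these libraries and 50.8 in the other, against 61.8 to 74.5 in the remaining 22 libraries. All 5 genes have a longest transcript of 7.33 to 9.04 kilobases, while those of Fkbp4, Fkbp5 and Ptges3 run from 2.0 to 3.86 kilobases. A length index was computed for each library as the median centred log2 value of the 1206 tested genes with transcripts of at least 7000 bases, which include the 5 coregulators, less that of the 3148 genes with transcripts of at most 2000 bases. It was -0.83 in knockout progesterone library 8, -0.31 in knockout vehicle library 13 and between -0.09 and 0.16 in the other 22. Library 8 also carried squamous epithelium markers (19.4 RPKM summed). The part of this shift in the genotype differences of the coregulators was not tested beyond the fits without these libraries and with the index as a covariate, which were chosen after the data were seen and whose values are given beside each gene.

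**Figure D3:**
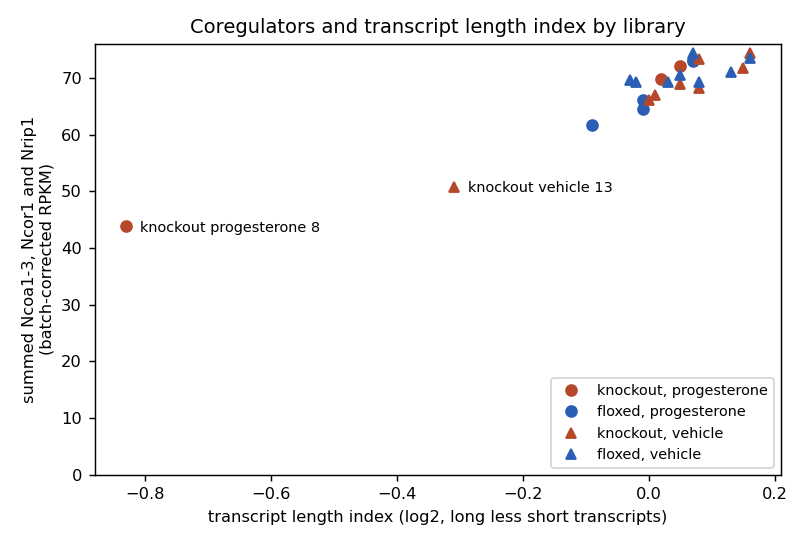
Length index of each library (median centred log2 value of genes with long transcripts less that of genes with short ones) against the summed RPKM of the 5 coregulators. Points are libraries, and knockout progesterone library 8 (-0.83) and knockout vehicle library 13 (-0.31) lie apart from the other 22.

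Ncoa1 (chromosome 12, 4247362 to 4477182, minus strand) encodes SRC-1, a p160 coactivator of progesterone and estrogen receptors. It measured 9.67, 9.32, 9.1 and 6.11 RPKM in knockout progesterone libraries and 11.6, 9.78, 9.83 and 9.92 RPKM in floxed progesterone libraries. Its lowest, median and highest vehicle values were 8.59, 10.1 and 11.2 RPKM in knockout libraries and 11, 11.4 and 12.4 RPKM in floxed libraries. Every knockout progesterone library was below every floxed one, and the vehicle ranges overlapped slightly. The genotype log2 fold change was -0.27 ± 0.10 after progesterone (-0.49 to -0.05, adjusted p = 0.0737) and -0.18 ± 0.07 after vehicle (-0.34 to -0.03, adjusted p = 0.0757). Neither was called. The vehicle difference was called without knockout progesterone library 8 (-0.18, adjusted p = 0.0107), without both low libraries (-0.15 ± 0.05, adjusted p = 0.0187) and with the length index as a covariate (-0.16 ± 0.04, adjusted p = 0.00725). The difference after progesterone was smaller without knockout progesterone library 8 (-0.13, adjusted p = 0.28), without both low libraries (-0.13 ± 0.07, adjusted p = 0.192) and with the covariate (-0.17 ± 0.06, adjusted p = 0.0562), and it was called without knockout progesterone library 4 (-0.33, adjusted p = 0.0398). The progesterone response was -0.25 ± 0.10 in knockout uteri (-0.45 to -0.04, adjusted p = 0.128) and -0.16 ± 0.10 in floxed uteri (adjusted p = 0.258). Without both low libraries it was -0.12 in knockout uteri and -0.14 in floxed uteri, and with the covariate -0.13 in knockout uteri and -0.12 in floxed uteri, none of them called. Within batches the vehicle log2 fold change was -0.20 ± 0.11 in the mixed batch (adjusted p = 0.245) and -0.17 ± 0.10 in the vehicle-only batch (adjusted p = 0.447). Quantile normalization called both genotype differences, at -0.27 after progesterone (adjusted p = 0.0452) and -0.18 after vehicle (adjusted p = 0.0463). On untransformed RPKM the genotype difference was called after vehicle (-1.41, adjusted p = 0.0384). It was not called after progesterone (-1.73, adjusted p = 0.0882).

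Ncoa3 (chromosome 2, 165992636 to 166073242, plus strand) encodes SRC-3, a coactivator of the same family. It measured 13.3, 13.6, 14.4 and 9.11 RPKM in knockout progesterone libraries and 11.6, 9.65, 10.1 and 10.1 RPKM in floxed progesterone libraries. Its lowest, median and highest vehicle values were 10.6, 13.8 and 14.7 RPKM in knockout libraries and 10.5, 11.7 and 13.6 RPKM in floxed libraries. After progesterone, 3 knockout libraries were above all floxed libraries and library 8 was below them. The genotype log2 fold change was 0.26 ± 0.12 after progesterone (0.02 to 0.49, adjusted p = 0.127) and 0.19 ± 0.08 after vehicle (0.02 to 0.36, adjusted p = 0.0992), and neither was called. Without knockout progesterone library 8 both were called, at 0.40 ± 0.10 after progesterone (adjusted p = 0.00564) and 0.19 after vehicle (adjusted p = 0.03). Without knockout vehicle library 13 the vehicle value was 0.24 (adjusted p = 0.0264). Without both libraries the values were 0.40 ± 0.07 after progesterone (adjusted p = 7.67e-04) and 0.24 ± 0.05 after vehicle (adjusted p = 0.00146). With the covariate they were 0.37 ± 0.07 after progesterone (adjusted p = 5.32e-04) and 0.21 ± 0.05 after vehicle (adjusted p = 0.00186). Within batches the vehicle value was 0.24 ± 0.11 in the mixed batch (adjusted p = 0.154) and 0.13 ± 0.12 in the vehicle-only batch (adjusted p = 0.652). With progesterone the log2 fold change was -0.11 ± 0.11 in knockout uteri (adjusted p = 0.606) and -0.18 ± 0.11 in floxed uteri (adjusted p = 0.253). Leaving out both low libraries gave 0.01 in knockout uteri and -0.15 in floxed uteri, and with the covariate 0.03 in knockout uteri and -0.13 in floxed uteri, none of them called. Exons of Ncoa3 share 154 bases with Sulf2 on the opposite strand (mean 30.2 RPKM), and whether reads were counted by strand is not stated.

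Ncoa2 (chromosome 1, 13139105 to 13374083, minus strand) encodes SRC-2, the coactivator needed for progesterone-driven decidualisation in the mouse. It measured 12.2, 11.9, 11.5 and 6.42 RPKM in knockout progesterone libraries and 10.6, 9.26, 10.9 and 9.56 RPKM in floxed progesterone libraries. Vehicle values (lowest, median and highest) were 8.34, 12.1 and 13.6 RPKM in knockout libraries and 10.6, 12.7 and 13.9 RPKM in floxed libraries. Of the floxed progesterone libraries, 2 were below all floxed vehicle libraries and the other two were at the low end of the vehicle range. The progesterone response was -0.19 ± 0.14 in knockout uteri (adjusted p = 0.462) and -0.31 ± 0.14 in floxed uteri (-0.61 to -0.02, adjusted p = 0.116). The floxed response was called without knockout progesterone library 8 (-0.31, adjusted p = 0.0257), without both low libraries (-0.28 ± 0.07, adjusted p = 0.00648) and with the covariate (-0.25 ± 0.06, adjusted p = 0.00626). The knockout response was -0.02 without both low libraries and 0.00 with the covariate, neither called. Leaving out a knockout library reaches a floxed comparison through the shared estimate of spread. A vehicle library also reaches it through the shared batch term, which moves the fold change itself. The genotype log2 fold change was 0.02 ± 0.15 after progesterone (adjusted p = 0.959) and -0.11 ± 0.11 after vehicle (adjusted p = 0.523). Without both low libraries it was 0.22 ± 0.08 after progesterone (adjusted p = 0.0578) and -0.04 ± 0.06 after vehicle (adjusted p = 0.666). With the covariate it was 0.18 ± 0.07 after progesterone (adjusted p = 0.0668) and -0.07 ± 0.05 after vehicle (adjusted p = 0.269).

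Ncor1 (chromosome 11, 62316426 to 62458541, minus strand), the corepressor that carries histone deacetylase 3 to receptors, did not pass the test in any comparison of the fit to all libraries. It measured 22.4, 23.5, 24.2 and 13.8 RPKM in knockout progesterone libraries and 24.1, 21.8, 22.5 and 23.8 RPKM in floxed progesterone libraries. Its lowest, median and highest vehicle values were 16.8, 23.0 and 24.8 RPKM in knockout libraries and 23.6, 24.3 and 26.2 RPKM in floxed libraries. The genotypes overlapped under each treatment. The genotype log2 fold change was -0.16 ± 0.13 after progesterone (-0.43 to 0.10, adjusted p = 0.416) and -0.14 ± 0.09 after vehicle (-0.33 to 0.05, adjusted p = 0.3). Without both low libraries it was 0.02 ± 0.06 after progesterone (adjusted p = 0.833) and -0.08 ± 0.04 after vehicle (adjusted p = 0.165). With the covariate it was -0.02 ± 0.05 after progesterone (adjusted p = 0.804) and -0.11 ± 0.04 after vehicle (adjusted p = 0.0225), where it was called. With progesterone the log2 fold change was -0.12 ± 0.12 in knockout uteri (adjusted p = 0.597) and -0.10 ± 0.12 in floxed uteri (adjusted p = 0.607). Leaving out both low libraries gave 0.03 in knockout uteri and -0.07 in floxed uteri, and with the covariate 0.05 in knockout uteri and -0.04 in floxed uteri, none of them called. Exons of Ncor1 share 82 bases with Pigl on the opposite strand (mean 4.89 RPKM).

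Nrip1 (chromosome 16, 76287400 to 76373827, minus strand) encodes RIP140, a ligand-dependent corepressor without which mice fail to ovulate. It measured 14.6, 14.9, 10.7 and 8.45 RPKM in knockout progesterone libraries and 15.1, 11.3, 12.9 and 11.1 RPKM in floxed progesterone libraries. After vehicle the lowest, median and highest values were 6.48, 10.1 and 11.2 RPKM in knockout libraries and 8.9, 10.3 and 12.5 RPKM in floxed libraries. In each genotype 2 progesterone libraries were above all vehicle libraries of that genotype. The progesterone response was 0.27 ± 0.15 in knockout uteri (-0.04 to 0.57, adjusted p = 0.298) and 0.25 ± 0.15 in floxed uteri (-0.05 to 0.56, adjusted p = 0.23). Without both low libraries the response was called, at 0.38 ± 0.11 in knockout uteri (adjusted p = 0.0349) and 0.29 ± 0.10 in floxed uteri (adjusted p = 0.0319). With the covariate it was 0.44 ± 0.10 in knockout uteri (adjusted p = 0.00871) and 0.31 ± 0.10 in floxed uteri (adjusted p = 0.0237). The genotype log2 fold change was -0.07 ± 0.16 after progesterone (adjusted p = 0.785) and -0.09 ± 0.11 after vehicle (adjusted p = 0.62). Leaving out both low libraries gave 0.08 after progesterone and -0.01 after vehicle, and with the covariate 0.07 after progesterone and -0.06 after vehicle, none of them called.

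**Figure D4:**
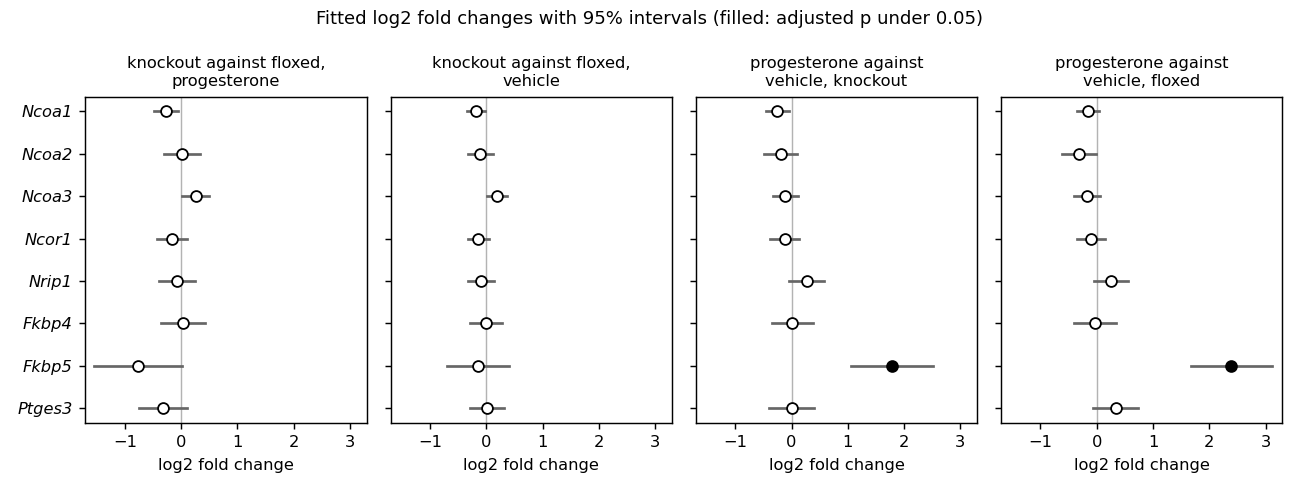
Log2 fold change of each member in each comparison, on the log2(RPKM + 0.5) scale. Points are limma estimates, filled where called, and bars their 95% intervals. Fkbp5 is at 1.78 in knockout uteri and 2.39 in floxed uteri for progesterone against vehicle, and the other members lie within 0.34 of 0 in every comparison shown.

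Across the members the median log2 fold change between genotypes was -0.12 after progesterone, against 0.03 over all tested genes, and -0.10 after vehicle, against -0.01. The median response to progesterone was -0.05 in knockout uteri, against -0.02 over all genes, and -0.06 in floxed uteri, against -0.06. Apart from Fkbp5 and Ptges3, the difference between the genotypes' responses lay between -0.09 and 0.12 (adjusted p of at least 0.842). In both vehicle groups the level per length was highest for Fkbp4, then Ptges3, then Ncor1, each above the next without overlap, while Ncoa1, Ncoa2, Ncoa3, Nrip1 and Fkbp5 followed with neighbours whose ranges overlapped. With progesterone Fkbp5 moved to the third place in both genotypes, above Ncor1 without overlap in floxed libraries and overlapping it in knockout libraries.

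The 3 genes whose values ran closest to those of Fkbp5 were Gramd2, Jam2 and Tcf23. Closeness was the root mean square, over 24 libraries, of the difference between centred log2 values, and it was 0.43 for Gramd2, 0.44 for Jam2 and 0.46 for Tcf23, beside 1.14 for Fkbp5 about its own mean. Gramd2 averaged 5.55 ± 2.59 RPKM in knockout and 7.68 ± 2.57 RPKM in floxed uteri after progesterone (SD, n = 4 each). Its genotype difference there was -0.48 ± 0.33 on the log2 scale (adjusted p = 0.333) and was not called. After vehicle Gramd2 averaged 1.32 ± 0.426 RPKM in knockout and 1.04 ± 0.62 RPKM in floxed uteri (SD, n = 8 each). Jam2, a junctional adhesion molecule gene, averaged 47.2 ± 1.71 RPKM in knockout and 107 ± 18.2 RPKM in floxed uteri after progesterone (SD, n = 4 each). The genotype difference was -1.16 ± 0.28 on the log2 scale (adjusted p = 0.00474). Its vehicle means were 17.7 ± 4.85 RPKM in knockout uteri and 18.8 ± 8.18 RPKM in floxed uteri (SD, n = 8 each). Tcf23, a helix-loop-helix factor gene, averaged 66.3 ± 8.99 RPKM in knockout and 90.1 ± 10.4 RPKM in floxed uteri after progesterone (adjusted p = 0.0815). These points share libraries, depth and the batch correction.

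Of 15 other coactivators, 0 were called between genotypes after vehicle, where 24.6% of all genes were called. After progesterone 2 were lower in knockouts and 0 higher, where 7.06% of all genes were lower and 12.3% higher. Ube3a, a ubiquitin ligase that also coactivates steroid receptors, averaged 9.58 ± 1.56 RPKM in knockout and 12.7 ± 0.864 RPKM in floxed uteri (SD, n = 4 each), a difference of -0.40 ± 0.10 on the log2 scale (adjusted p = 0.00679). Prmt1, an arginine methyltransferase, averaged 55.3 ± 13 RPKM in knockout and 83.3 ± 11.8 RPKM in floxed uteri (SD, n = 4 each; -0.60 ± 0.18, adjusted p = 0.023). Leaving out the 5 libraries high in oviduct or squamous markers ended the Ube3a call (-0.24, adjusted p = 0.0974). The Prmt1 call was lost without knockout library 4 (-0.52, adjusted p = 0.0753) or 5 (-0.53, adjusted p = 0.0765) and without floxed library 2 (-0.53, adjusted p = 0.0743) or 9 (-0.57, adjusted p = 0.0598). With progesterone, Sra1, an RNA coactivator gene, rose in both genotypes, by 0.61 ± 0.10 in knockout uteri (adjusted p = 3.63e-04) and 0.51 ± 0.10 in floxed uteri (adjusted p = 5.78e-04). In knockout uteri Sra1 was the only 1 of the 15 called, where 8.67% of all genes were called. In floxed uteri Ncoa7 (0.33 ± 0.09, adjusted p = 0.0111) and Ncoa4 (0.44 ± 0.12, adjusted p = 0.0125) rose too and 1 of the 15 fell. Of all genes, 7.84% rose and 15.1% fell in floxed uteri. The Ncoa7 call was lost without floxed library 7 (0.28, adjusted p = 0.0541) and the Ncoa4 call without floxed library 9 (0.39, adjusted p = 0.0517). Both were lost without the 5 libraries high in oviduct or squamous markers (Ncoa7 0.28, adjusted p = 0.0718, and Ncoa4 0.40, adjusted p = 0.0756).

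Of 10 other corepressors, 1 fell with progesterone in each genotype, beside 4.66% of all genes in knockout uteri and 15.1% in floxed uteri. This corepressor was Tbl1xr1, a subunit of the NCoR complex, with a log2 fold change of -0.44 ± 0.07 in knockout uteri (adjusted p = 4.79e-04) and -0.51 ± 0.07 in floxed uteri (adjusted p = 2.49e-05). Gps2, another subunit of that complex, was lower in knockouts after vehicle (-0.18 ± 0.06, adjusted p = 0.0221). That call was lost without knockout vehicle library 4 or floxed vehicle library 10 (-0.16, adjusted p = 0.0503 for each). It was also lost without the 5 libraries high in oviduct or squamous markers (-0.18, adjusted p = 0.0532). The mixed batch alone (-0.19, adjusted p = 0.0849) and the vehicle-only batch alone (-0.18, adjusted p = 0.434) gave no call. Of 14 other genes of the Hsp90 machinery, 0 were called for progesterone in either genotype. Of all genes, 8.67% were called in knockout uteri and 23.0% in floxed uteri. Bag1, which couples Hsp70 to receptors, was higher in knockouts after progesterone (0.37 ± 0.09, adjusted p = 0.00728) and after vehicle (0.25 ± 0.07, adjusted p = 0.00782), and the value after progesterone was not called without those 5 libraries (0.27, adjusted p = 0.0551). The value after vehicle was not called in the mixed batch alone (0.22, adjusted p = 0.148) or in the vehicle-only batch alone (0.28, adjusted p = 0.149).

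Of 5 tested steroid receptor genes, 4 fell with progesterone in knockout uteri and 5 in floxed uteri. Among all genes, 4.66% fell in knockout uteri and 15.1% in floxed uteri. Without the 5 libraries high in oviduct or squamous markers, 2 of the receptor genes were called in knockout uteri. The estrogen receptor gene Esr1 averaged 34.5 ± 2.03 RPKM in knockout progesterone uteri and 50.3 ± 4.19 RPKM in knockout vehicle uteri (-0.54 ± 0.07, adjusted p = 6.41e-05). In floxed uteri Esr1 averaged 29.7 ± 1.56 RPKM after progesterone and 49.7 ± 2.91 RPKM after vehicle (-0.74 ± 0.07, adjusted p = 1.66e-07). The glucocorticoid receptor gene Nr3c1 fell by 0.62 in knockout uteri (adjusted p = 5.12e-04) and by 0.88 in floxed uteri (adjusted p = 2.08e-06). After vehicle it averaged 15.8 ± 1.19 RPKM in knockout and 19.7 ± 0.984 RPKM in floxed uteri, and was called lower in knockouts. That call was lost in the vehicle-only batch alone (-0.22, adjusted p = 0.176). After progesterone Nr3c1 averaged 10.2 ± 2.07 RPKM in knockout and 10.5 ± 1.38 RPKM in floxed uteri. Pgr averaged 13.4 ± 3.6 RPKM in knockout and 11 ± 3.29 RPKM in floxed uteri after progesterone (SD, n = 4 each), and 23.2 ± 3.84 RPKM in knockout and 39.5 ± 4.18 RPKM in floxed uteri after vehicle (SD, n = 8 each). Its vehicle difference was called (-0.77 ± 0.14, adjusted p = 2.35e-04). Cre is expressed from the Pgr gene in the knockouts, and what that allele adds to the difference was not tested.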

How the data were processed

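Trizol-extracted RNA was made into TruSeq libraries, per the labels' protocols. The submitters' processing notes name cutadapt 2.7, TopHat, Partek and the build mm10. The counting tool, annotation, strand setting and batch correction method were not given. The authors deposited gene-level RPKM after batch correction, with 6.66% of values below 0 (0 for the 8 members). Vehicle means of both batches were equal for 13688 of 13688 genes with a mean above 1 (relative tolerance 0.0001), and the form of the correction was not tested; adding a constant per gene would change ratios, most in low genes.

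Values below 0 were set to 0 and log2(RPKM + 0.5) was fitted with limma 3.58.1 in R 4.3.3 (group and batch terms, eBayes with trend and robust, 19 residual degrees of freedom). The filter was 1 RPKM in at least 4 libraries. P-values were two-sided and Benjamini-Hochberg adjusted over 14284 genes at 0.05. The fit was tested on simulated data with independent errors and planted genotype changes, equal under each treatment. No progesterone effect was planted, so recovery of a progesterone response or of a difference of responses was not tested. Fold changes of low genes are understated. No depth interval is given because the table holds no counts.

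The named genes were all 8 members, Ctcf, at most 3 called genes per list and comparison with the smallest adjusted p, and the 3 genes nearest to a member with a called change of at least 1. A gene that this rule names is not reported here. Members and lists were chosen with earlier results of these data known. Alternatives covered the pseudocount, the filter, quantile normalization, single batches, untransformed values, a replicate block and left-out libraries. The libraries that share a number (1a with 1b, 11a with 11b) differed like other cross-batch pairs and were kept separate. Positions are from GENCODE M21 (GRCm38).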

Additional observations from a re-analysis of the deposited data

Results flagged for a closer look

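Of 32 pairs of member and group, 8 held a library far from the rest of its group. The rule's nominal rate is about 1 in 20 for independent pairs. These pairs share libraries and the rate over all genes was not computed, so no excess is read from the count. Knockout progesterone library 8 stood low for Ncoa1 (6.11 RPKM) and Ncoa2 (6.42 RPKM). Knockout vehicle library 13 stood low for Ncoa2 (8.34 RPKM), Ncor1 (16.8 RPKM) and Nrip1 (6.48 RPKM). Both libraries have the lowest length index, as given above. Among floxed libraries, Ncoa1 stood high in progesterone library 1 (11.6 RPKM), Nrip1 in vehicle library 1a (12.5 RPKM) and Fkbp4 in vehicle library 12 (158 RPKM).

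The response of Fkbp5 to progesterone differed between genotypes by -14.46 RPKM, knockout minus floxed (adjusted p = 0.0159), on the untransformed scale only. The response of Pgr differed by 1.04 on the log2 scale, knockout minus floxed (adjusted p = 0.0197). That call was lost in the mixed batch alone (1.00, adjusted p = 0.0877), without knockout progesterone library 5 (0.99, adjusted p = 0.0571) and without floxed progesterone library 9 (0.89, adjusted p = 0.062).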

How the results depend on the processing

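Of 1408 member values under the alternatives, 1377 kept their side of the threshold, 30 became called, 1 lost its call (Fkbp5 with progesterone in knockout uteri with the replicate block, 1.45 ± 0.38, adjusted p = 0.101), and 0 called values changed sign; 115 uncalled values did, the largest 0.49 on the log2 scale. The fits with the length covariate or without both low libraries were chosen after seeing the data, and the causes of the changes were not tested. Same-numbered libraries deviated together in 6 of 11 pairs (correlation -0.34 to 0.54, above 0.1 counted), so the numbers were not taken to pair samples; the replicate block moved Ncoa2 (-0.25, adjusted p = 0.0322), Nrip1 (0.33, adjusted p = 0.0327) and Ptges3 (0.31, adjusted p = 0.0463) past the threshold for progesterone in floxed uteri. Among genes of the other lists reported here the block ended the calls after progesterone between genotypes of Ube3a (-0.21, adjusted p = 0.341), Prmt1 (-0.82, adjusted p = 0.0615) and Bag1 (0.17, adjusted p = 0.427), and after vehicle of Bag1 (0.12, adjusted p = 0.279). It also ended the calls of the progesterone response in knockout uteri of Sra1 (0.61, adjusted p = 0.0545) and Tbl1xr1 (-0.35, adjusted p = 0.123), left 2 steroid receptors called there, and ended the call of the difference of responses of Pgr (1.26, adjusted p = 0.0796).

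Genes called between genotypes numbered 2767 of 14284 after progesterone (block 822, and 2151 to 3245 with 1 library left out). After vehicle they numbered 3516 of 14284 (5 RPKM filter 2293 of 10689 tested, vehicle-only batch 1178, and 3101 to 3822 with 1 left out). For progesterone they numbered 1238 in knockouts (block 162, without the 5 libraries high in oviduct or squamous markers 398, 881 to 1339 with 1 left out). In floxed uteri they numbered 3280 (2064 without those 5, 2401 to 4101 with 1 left out). For the difference of responses 355 of 14284 were called (236 of 10689 tested with the 5 RPKM filter, 26 with the block, 213 without those 5 and 542 with the covariate). With 1 left out the count ran from 210 without knockout progesterone library 5 to 716 without floxed vehicle library 12.

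Members called between genotypes after progesterone were 0, or 1 with quantile normalization, the mixed batch, untransformed values, without those 5, without both low libraries and with the covariate (0 to 1 with 1 left out). In the same order, the genes called over all 14284 were 2789, 3417, 2516, 2046, 2757 and 3421. After vehicle the members called were 0, or 1 with quantile normalization, the mixed batch and untransformed values, 2 without both low libraries and 3 with the covariate (0 to 2). The genes called over all 14284 were, in that order, 3987, 2445, 3438, 3746 and 4149. In knockouts with progesterone 1 member was called, 0 with the block and 2 without both or with the covariate. Over all 14284 genes, 162 were called with the block, 1023 without both and 1540 with the covariate. In floxed uteri 1 member was called, 4 with the block and 3 without both or with the covariate (1 to 2). Over all 14284 genes, 3038 were called with the block, 3731 without both and 3851 with the covariate. Whether the members exceed the share of all genes was not tested under any setting. For the difference 0 members were called, or 1 on untransformed values, where 438 of all 14284 genes were called. Quantile normalization changed the share of higher calls to 52.7% from 63.5% between genotypes after progesterone and to 46.5% from 34.1% in floxed uteri with progesterone. The majority turned from higher to lower between genotypes after vehicle (47.2% higher, against 53.4%) and from lower to higher with progesterone in knockouts (53.4%, against 46.2%).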

Other observations

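Some libraries were high for both Fkbp4 and Ptges3. Floxed vehicle library 12 had the highest vehicle value of its genotype for both, at 158 RPKM for Fkbp4 and 68.4 RPKM for Ptges3. Knockout progesterone library 8 had the highest value of its group for both, at 127 RPKM for Fkbp4 and 67.2 RPKM for Ptges3. Knockout vehicle library 13 was highest of its group for Ptges3 (73.0 RPKM) and close to the top for Fkbp4 (121 RPKM, with 123 RPKM in library 12).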
